A study of Oncorhynchus mykiss with 32 samples.

Results

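The transcripts described here are those of 5 proteins of cholesterol synthesis in rainbow trout liver, taken by clone identifier from the 9023 trout cDNA clones of a nylon array. They are cytosolic acetyl-CoA acetyltransferase (ACAT2, clone tcbk0049.e.13), the C-4 methylsterol oxidase ERG25 (1RT39G22_C_D11), the ergosterol biosynthetic protein 28 homologue ERG28 (tcbk0026.a.17), the sterol isomerase EBP (1RT102I12_C_E06) and the 24-dehydrocholesterol reductase DHC24 (tcay0009.m.15). All 5 were among the 7763 clones tested, which had 5 or more values in every group. Their names, each a best protein match, were read here from the study's lists of transcripts called on these same arrays, mostly for diet. Their difference between diets is therefore not independent of how they were chosen.

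Liver RNA of 32 trout was hybridized, 1 fish per array, with 8 livers in each of 4 groups. L-LE and L-HE were fish of the line selected for lean muscle (L), fed a low energy diet with 10% lipid (LE) or a high energy diet with 23% lipid (HE). F-LE and F-HE were fish of the line selected for fat muscle (F) on the same diets. All fish were fed from their first meal for 6 months, each group was held in 3 tanks, and both diets shared 1 fishmeal base, to which fish oil had been added for HE. The tank of each fish was inferred here from the number after the group name in its label, which does not itself say tank. All results over tanks rest on this reading. Each line is a single selected stock, so that line and founder effects cannot be told apart.

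Cholesterol is built from acetyl-CoA in the cytosol and on the endoplasmic reticulum, and the liver is a main site of its synthesis and export in vertebrates. ACAT2 joins acetyl-CoA units in the opening step. Lanosterol, the first sterol of the pathway, is then trimmed of its methyl groups, its ring double bond is shifted and its side chain is reduced. ERG25 oxidizes the methyl groups at carbon 4, and ERG28 is known from yeast as a scaffold that holds the demethylating enzymes together. EBP moves the ring double bond and DHC24 reduces the side chain. In mammals the genes of the pathway are switched on together by the transcription factor SREBP-2 when membrane cholesterol is low.

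Values are given as log2 of the signal over the median of the array, and levels are compared only within a clone. The number of clones measured per array ranged from 7613 to 8134. One F-HE array, from tank 3 on membrane 59, stood apart. Its median Spearman correlation with the other arrays was 0.149, against 0.828 to 0.966 for the other 31, and its luciferase control spots had a median of 0.71 against 5.71 to 7.62. A further 5 arrays had a median correlation under 0.9, so that the 6 together comprised 3 of L-LE, 1 of F-LE, 2 of F-HE and 0 of L-HE. Results are therefore given with and without membrane 59. Read beside them were 7 liver-secreted protein clones (apolipoprotein A-I, complement C3, factor H, transthyretin and inter-alpha-trypsin inhibitors). Their mean lay between 3.80 and 5.01 on the 31 arrays and at 0.49 on membrane 59. Of the 7, 0 were called between the diets. As only 19 of the 7763 clones tested were called over all arrays, this count says little about the 7.

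ACAT2, the first enzyme, had its highest level in F-LE livers and its lowest in F-HE livers. In the L line it ran from 1.18 through a median of 1.57 to 2.68 on LE and from 0.71 through 1.20 to 1.68 on HE. In the F line it ran from 1.14 through 2.20 to 2.72 on LE and from -0.86 through 1.13 to 1.43 on HE. The groups overlapped in both lines, although 7 of the 8 F-LE livers lay above every F-HE liver, the exception being the fish on membrane 72. In the fit over all clones ACAT2 fell by 0.93 on HE over both lines (standard error 0.197, limma adjusted p = 0.0379), which corresponds to a 1.91-fold higher level on LE. The difference was -0.56 in L and -1.31 in F (a 2.48-fold higher level on LE), with two-sided exact permutation p = 0.0376 and 0.000777 over the 16 livers of each line. The lowest F-HE value was that of membrane 59, without which the F difference was -1.07 (exact permutation p = 0.00109) and that over both lines -0.82 (adjusted p = 0.0129).

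ERG25, the C-4 methyl oxidase, was not called between the diets, and its ranges on LE and HE overlapped in both lines. It ran from 2.88 through 3.62 to 3.99 in L-LE, from 2.91 through 3.35 to 3.66 in L-HE and from 2.68 through 3.90 to 4.16 in F-LE. In F-HE it ran from 0.54 through 3.13 to 3.72. The lowest value, on membrane 59, lay far below the next F-HE liver at 2.84. The diet difference over both lines was -0.50 (standard error 0.206, limma adjusted p = 1), and without membrane 59 it was -0.33 (adjusted p = 0.632). Within the F line it was -0.80 with membrane 59 and -0.47 without it, at exact permutation p = 0.0258 and 0.0517. The study's list of diet effects holds ERG25, printed there as lower on HE in L and higher on HE in F. Here its mean was lower on HE in both lines.

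ERG28, the scaffold protein, was the clone that best separated the diets in the F line. In F-LE it ran from 0.19 through 0.80 to 1.20 and in F-HE from -0.73 through -0.33 to -0.01. Every F-HE liver lay below every F-LE liver, with or without membrane 59, a separation that 0.0515% of the 7763 clones showed. In the L line the ranges were -1.35 through 0.64 to 1.05 on LE and -0.54 through -0.15 to 0.30 on HE. There 5 of the 8 L-LE livers lay above all L-HE livers, while the L-LE liver on membrane 56 lay below all of them. ERG28 fell by 0.82 over both lines (standard error 0.165, limma adjusted p = 0.0282), a 1.77-fold higher level on LE, and by 0.79 without membrane 59 (adjusted p = 0.0169). The difference in F was -1.13 (exact permutation p = 0.000155, the smallest that 8 against 8 livers can give) and that in L was -0.51 (exact permutation p = 0.113).

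EBP, the isomerase, had a larger diet difference in F than in L livers over all arrays, though limma did not call this contrast between the lines. It ran from 1.69 through 2.74 to 3.21 in L-LE and from 1.84 through 2.39 to 3.06 in L-HE. In the F line it ran from 2.09 through 2.51 to 2.79 on LE and from 0.82 through 1.77 to 2.18 on HE. The L groups overlapped almost wholly, whereas 7 of the 8 F-HE livers lay below every F-LE liver. The diet difference over both lines was -0.49 (standard error 0.147) and did not pass the threshold (limma adjusted p = 0.518), nor did it without membrane 59 (-0.43, adjusted p = 0.371). Within F it was -0.79 (exact permutation p = 0.000311) and without membrane 59 -0.67 (exact permutation p = 0.000622), while within L it was -0.19 (exact permutation p = 0.429).

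DHC24, the side-chain reductase, was the only clone that membrane 59 pulled upwards. In F-LE it ran from -1.39 through -0.41 to 0.02 and in F-HE from -1.90 through -1.50 to -0.18. The highest F-HE value, -0.18, was that of membrane 59, and the other 7 F-HE livers ended at -1.30. Without it, 7 of the 8 F-LE livers lay above all F-HE livers. In L the clone ran from -1.19 through -0.50 to 0.51 on LE and from -1.75 through -1.30 to -0.06 on HE. There the groups overlapped, with 5 of the 8 L-HE livers below every L-LE liver. The diet difference over both lines was -0.76 (standard error 0.199, limma adjusted p = 0.193), and without membrane 59 it fell by 0.85 and passed the threshold (adjusted p = 0.0233). In F the difference moved from -0.91 to -1.08 without membrane 59 (exact permutation p = 0.00622 and 0.000622), and in L it was -0.61 (exact permutation p = 0.0769).

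**Figure D1:**
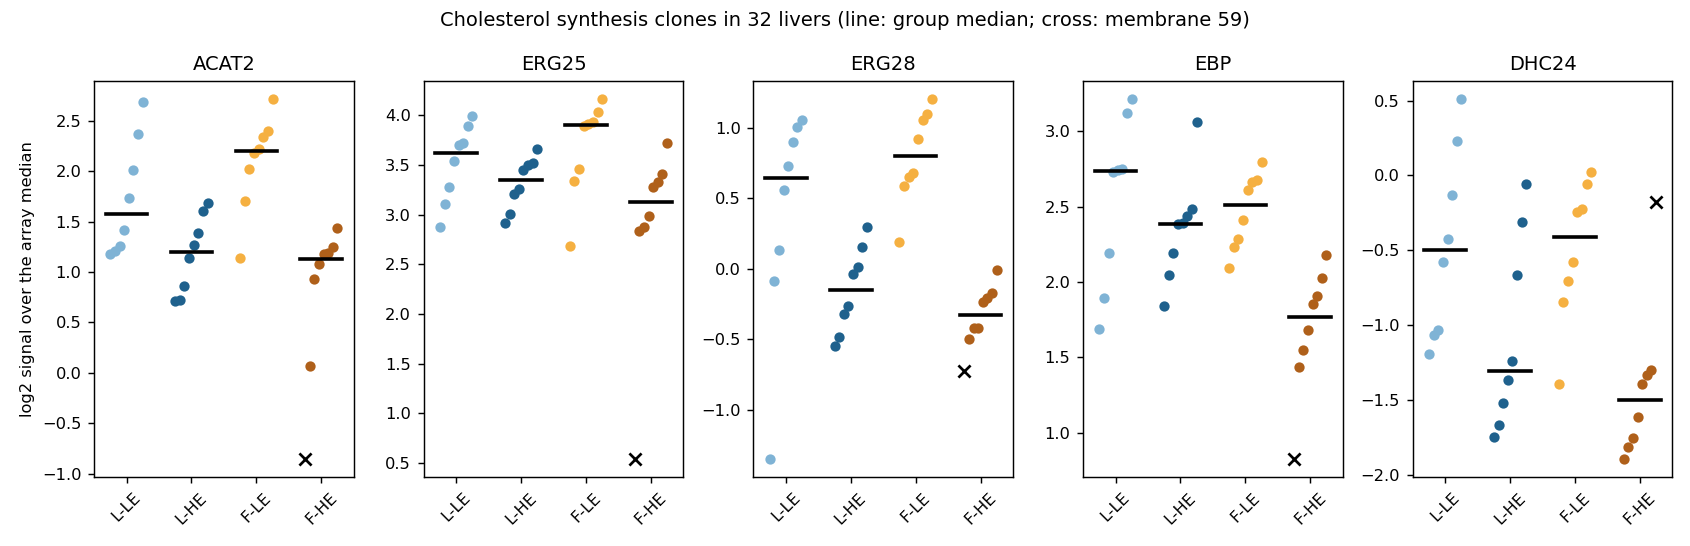
Log2 signal over the array median of the 5 cholesterol synthesis clones in each of 32 livers, by line and diet, with the median of each group of 8 as a horizontal line and membrane 59 as a cross. ERG28 shows no overlap between F-LE and F-HE, and the cross is the lowest F-HE value for each clone but DHC24, where at -0.18 it is the highest.

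Over both lines, ACAT2 and ERG28 were thus the 2 of the 5 clones called lower on HE by limma at adjusted p under 0.15, among 0.232% of all clones called in that direction. The median difference of the 5 was -0.76, against -0.01 over the 7763 clones. Without membrane 59 the count was 3 of 5, with DHC24 added, beside 0.503% of all clones. With 1 weight per array, and likewise without the 6 low-correlation arrays, a choice made after seeing the data, all 5 were called lower, beside 1.2% and 0.856% of clones. In the latter fit the differences were -0.85 for ACAT2, -0.46 for ERG25, -0.99 for ERG28, -0.51 for EBP and -1.02 for DHC24. Two-way ANOVA of each clone with p under 0.01 and no adjustment, a test the study also used, called 4 of the 5 lower, beside 0.979% of clones. It left out ERG25. With 1 mean per tank, the unit that received the diets, limma called none of the 5. With 1 tank left out it called 1 to 3. The share of all clones called in these tank fits is not given here. Since the names were read from the study's lists of calls on these arrays, such counts describe the clones and are no separate evidence.

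The order of group means was the same for ACAT2, ERG25 and ERG28, namely F-LE, L-LE, L-HE and F-HE from high to low. For EBP and DHC24, L-LE stood first and F-LE second. Among neighbouring groups in these orders, L-LE and L-HE had an exact permutation p under 0.05 for ACAT2 (p = 0.0376). So did L-HE and F-HE for EBP (exact permutation p = 0.00218). The livers of the groups overlapped in both cases. Each other pair of neighbours gave an exact permutation p between 0.0651 and 0.88. In all, 30 such tests of group pairs were run for the 5 clones, with p-values not adjusted for their number and no account of tanks.

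Tanks, which received the diets, were compared through their means. For ACAT2, the 3 L-LE tanks had means of 1.481, 1.57 and 2.09 and the 3 L-HE tanks 0.78, 1.12 and 1.478. The F-LE tanks had 1.89, 1.98 and 2.56 and the F-HE tanks, without membrane 59, 0.63, 1.13 and 1.20. Every HE tank lay below every LE tank of its line for ACAT2 and also for ERG25, with or without membrane 59. Of the 7763 clones, 0.477% had such a separation in both lines over all arrays. The separation in L was thus by a few thousandths for ACAT2, and it was narrow for ERG25 as well, where the highest L-HE tank had a mean of 3.40 and the lowest L-LE tank 3.41, and the highest F-HE tank had 3.37 and the lowest F-LE tank 3.39 without membrane 59. The two-sided exact permutation p over the 12 tanks was 0.005 for both clones, the smallest that these 400 arrangements allow.

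ERG28 had F-LE tank means of 0.75, 0.78 and 0.89 against -0.37, -0.33 and -0.09 in F-HE without membrane 59. Its L-HE tanks had -0.26, -0.14 and -0.08, and the L-LE tanks 0.59, 0.66 and -0.40. The low L-LE tank was tank 2, whose arrays, membranes 53 and 56, both belonged to the 6 of low correlation. Over tanks the exact permutation p was 0.02 for ERG28, 0.03 for EBP and 0.01 for DHC24, and the same without membrane 59. Leaving out the L-LE array on membrane 53 raised the exact permutation p to 0.13 for ERG28 (difference -0.62) and to 0.105 for EBP (-0.38), which left 3 of the 5 clones under 0.05. All 3 F-HE tanks lay below all 3 F-LE tanks for each of the 5 clones, narrowly for ERG25 without membrane 59 (3.37 against 3.39). The share of all clones with this separation in F alone was not counted. The separation in F is thus a description of the 5 with no baseline, and is not evidence about them. In L the number of HE tanks below all LE tanks was 0 for ERG28, 1 for EBP and 2 for DHC24.

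**Figure D2:**
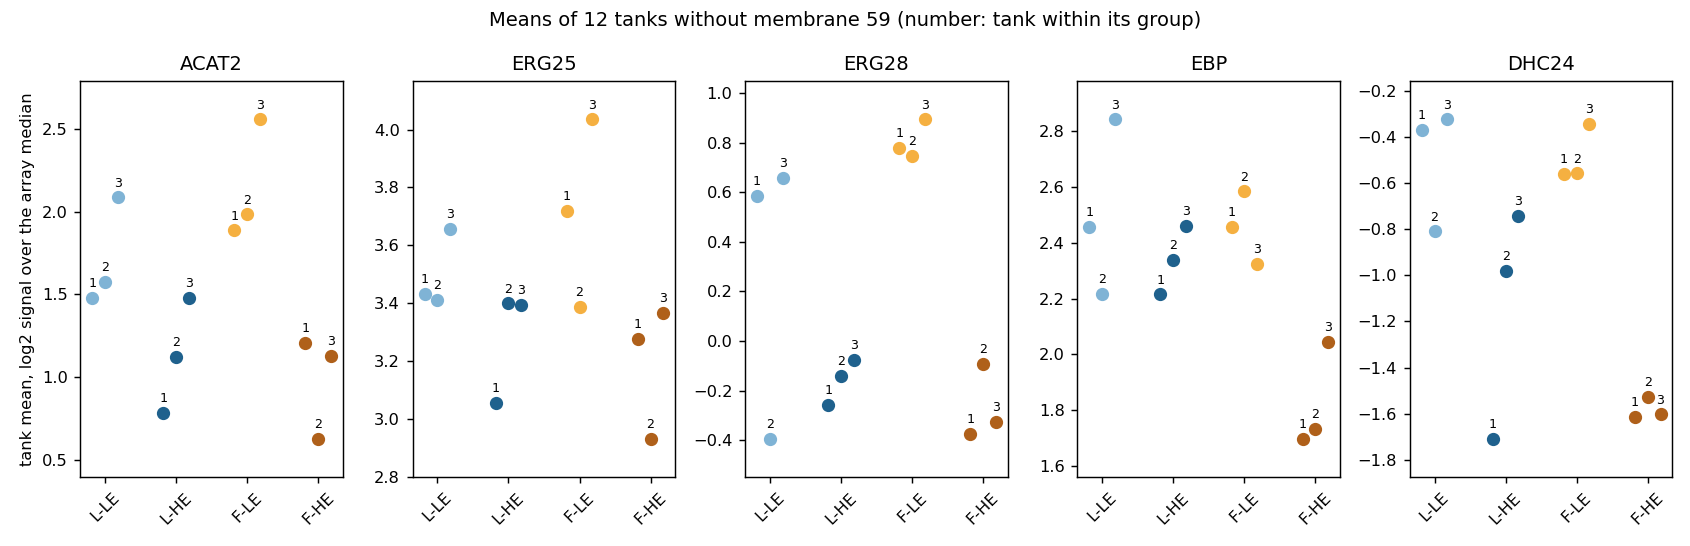
Mean log2 signal over the array median of each of the 12 tanks, without membrane 59, for the 5 clones by group, with the tank number above each point. For ACAT2 the highest L-HE tank (1.478) nearly meets the lowest L-LE tank (1.481), the F-HE tanks end at 1.20 below the F-LE tanks, and for ERG28 tank 2 of L-LE, at -0.40, lies below the L-HE tanks.

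Within single lines, limma called ACAT2 and ERG28 lower on HE in the F line (adjusted p = 0.129 and 0.125), beside 0.0515% of all clones. None of the 5 was called in the L line. There 0% of clones were called lower, and 432 had an unadjusted p under 0.05 in either direction. Both F calls were near the threshold and held together in only 15 of the 32 fits that left out 1 array. They were lost without membrane 59 (limma adjusted p = 0.18 for each). Then 0% of clones were called lower in F, and 234 had an unadjusted p under 0.05 in either direction, while 0.0129% were called lower in L. The differences of the 5 clones were -0.47 to -1.08 in F and -0.19 to -0.61 in L in that fit. With array weights all 5 were called lower in F, beside 1.28% of clones, and without the low-correlation arrays ERG28 was called lower in L, beside 0.169% of clones. Over all arrays each difference was larger in F than in L in size, by 0.29 for DHC24 to 0.75 for ACAT2. The difference of these differences did not pass the test for any clone (limma adjusted p between 0.548 and 0.683), and 0% of all clones passed (523 at an unadjusted p under 0.05, and 53 by ANOVA at p under 0.01). Without membrane 59 this interaction was -0.51 for ACAT2, -0.27 for ERG25, -0.56 for ERG28, -0.48 for EBP and -0.47 for DHC24. Without the 6 low-correlation arrays it was -0.24 for ACAT2, -0.19 for ERG25, -0.25 for ERG28, -0.13 for EBP and -0.31 for DHC24. A larger response of the F line was thus not established by these tests. In simulated data, with the spread between livers taken without membrane 59, limma called 59% of 2-fold and 14% of 1.5-fold interactions. For diet differences of these sizes it called 95% and 84%. In that simulation 200 of the 7763 clones were changed for each comparison, and limma made 210 calls for diet. Noise was drawn independently for each clone, with the same spread on every array. Arrays of low correlation and shifts shared by many clones were thus not simulated. These rates therefore do not carry over to the real arrays. On the 32 real arrays limma called 19 clones for diet, and DHC24, with a difference of -0.76, was not among them. How often limma would call such diet differences or interactions with the spread of all 32 arrays, membrane 59 included, was not tested.

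**Figure D3:**
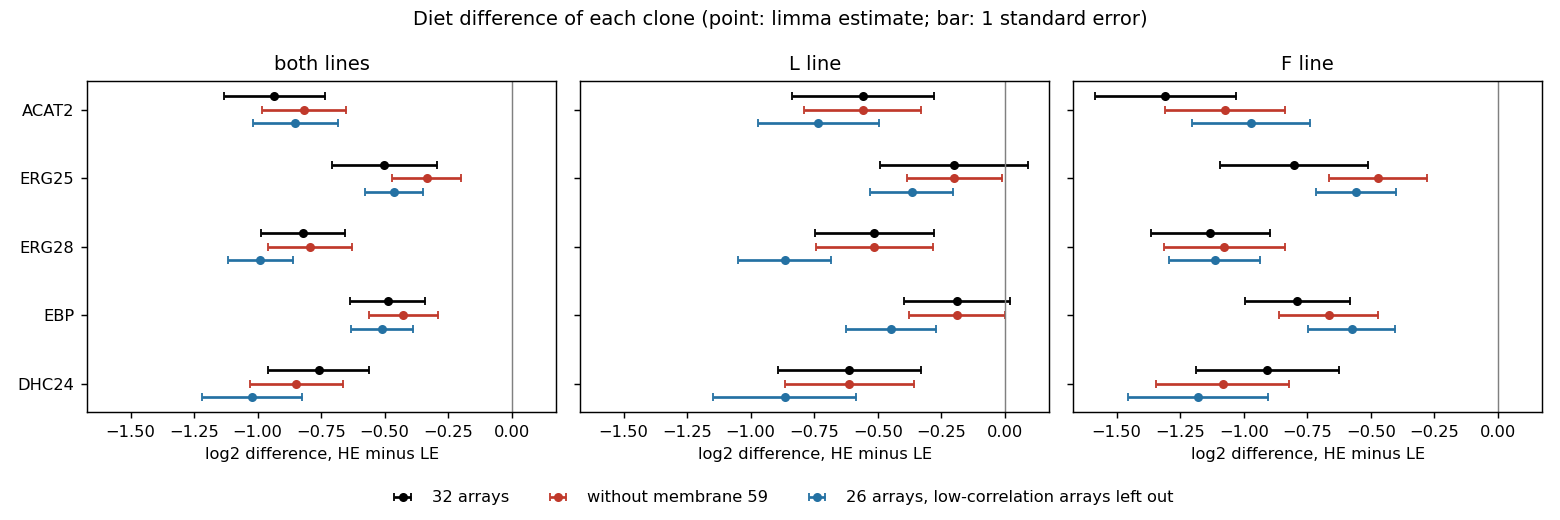
Difference in log2 signal between HE and LE (x axis) for each of the 5 clones over both lines, in L and in F, as limma estimates with 1 standard error, from 32 arrays, without membrane 59 and from the 26 arrays left without the 6 of low correlation. All estimates are below 0, and in F leaving out membrane 59 moves ERG25 from -0.80 to -0.47 and DHC24 from -0.91 to -1.08.

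No clone was called between the lines. Averaged over the diets, F minus L was -0.01 for ACAT2, -0.14 for ERG25, 0.12 for ERG28, -0.37 for EBP and -0.19 for DHC24, and 0% of all clones was called by limma (258 at an unadjusted p under 0.05, and 53 by ANOVA at p under 0.01). Without membrane 59 the differences of ACAT2 and ERG25 turned sign, to 0.10 and 0.03, and those of ERG28, EBP and DHC24 were 0.15, -0.31 and -0.28. EBP was the one clone with a low unadjusted p. The study's own list of line effects, called on these same arrays, holds EBP. Its line difference is therefore not independent of how it was chosen. On the HE diet EBP was 0.67 lower in F than in L livers in limma's fit (log2 difference -0.67, adjusted p = 0.597), with an exact permutation p of 0.00218 over 16 livers. Of the 8 L-HE livers, 6 lay above every F-HE liver. Without membrane 59 the difference was -0.55 (exact permutation p = 0.00466), while on the LE diet it was -0.07 (exact permutation p = 0.746).

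In L-LE, L-HE and F-LE, some livers deviated from the rest of their group in the same direction for all 5 clones. Each liver was expressed as its deviation from the mean of its group. Without membrane 59, 5 of the 31 livers lay below their group mean for all 5 clones and 8 lay above it for all 5. None of these was an F-HE liver. One that lay below for all 5, the L-LE liver on membrane 68, was on an array of low correlation (0.854). How often other sets of 5 clones deviate together was not counted. The F-LE liver on membrane 72 deviated by -0.95 for ACAT2, -0.34 for ERG25, -0.60 for ERG28, -0.38 for EBP and -0.89 for DHC24, and was the lowest F-LE liver for each of them but ERG25. Its array was one of high correlation with the others (0.966). At the other end, the L-LE liver on membrane 66 deviated by 0.95, 0.48, 0.68, 0.67 and 0.69 in the same order, and the L-HE liver on membrane 33 by 0.44, 0.35, 0.44, 0.71 and 0.76. The L-LE liver on membrane 56 split the clones, with deviations of -1.72 for ERG28, -0.86 for EBP and -0.73 for DHC24 but 0.00 for ACAT2 and 0.21 for ERG25.

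**Figure D4:**
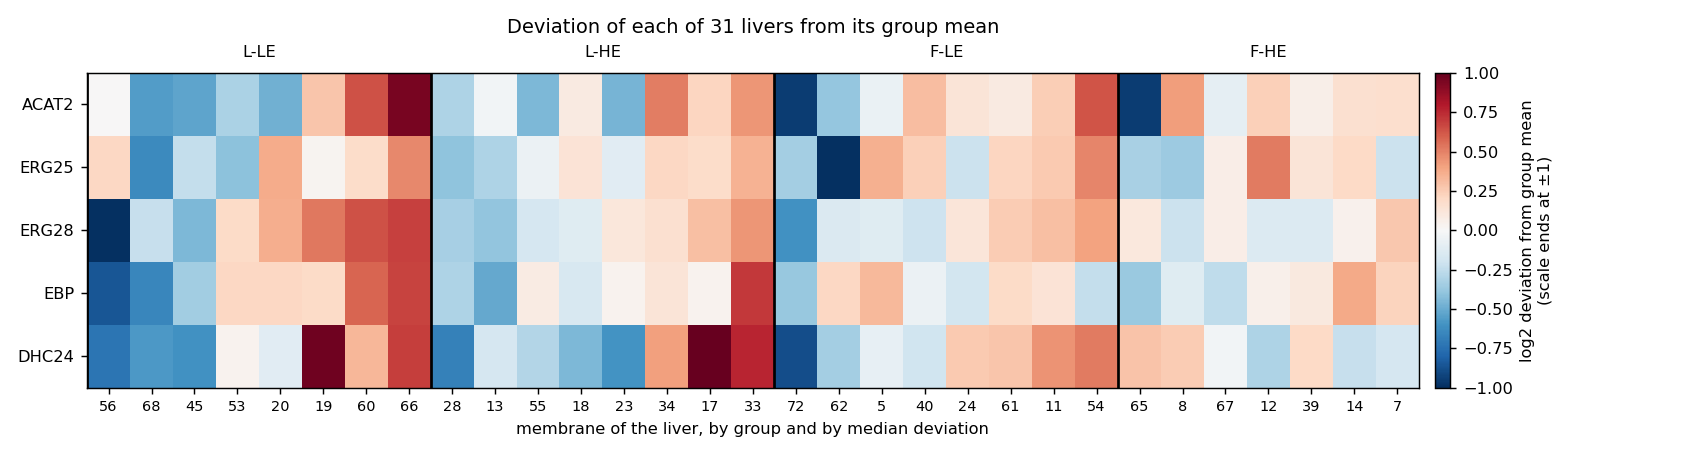
Deviation of each of 31 livers from the mean of its group in log2 signal, red above and blue below, for the 5 clones (rows), with livers in columns by group and ordered by their median deviation, and membrane numbers below (the colour scale ends at 1 in either direction). Columns of 1 colour, such as membrane 72 of F-LE (-0.34 to -0.95) and membrane 66 of L-LE (0.48 to 0.95), are livers in which all clones deviated together.

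Over the 31 livers without membrane 59, the deviations of all 10 pairs of clones were positively correlated, with a median Pearson r of 0.513. In 9 of the 10 pairs the permutation p was under 0.05, also after Benjamini-Hochberg adjustment over the 10 pairs, and by Spearman's rho this held for all 10. The closest pairs were ERG28 with EBP (r = 0.742, permutation p = 3e-05, adjusted 0.00015; rho = 0.675, permutation p = 0.00037) and ERG28 with DHC24 (r = 0.716 and rho = 0.811, each with permutation p = 1e-05, the smallest that 100000 shuffles can give). Next came ACAT2 with DHC24 (r = 0.626, permutation p = 0.00045, adjusted 0.0015; rho = 0.643, permutation p = 0.00049). The loosest pair was ERG25 with ERG28 (r = 0.282, permutation p = 0.164, adjusted 0.164; rho = 0.467, permutation p = 0.0131). When the 2 livers farthest from the median of the first clone were left out of each pair, r was 0.659, 0.736, 0.689 and 0.279 in the same order. The lowest of the 10 values was then 0.279.

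Membrane 59 moved most the pairs of DHC24 with ACAT2, ERG25 and EBP. With all 32 arrays, the r of DHC24 was 0.212 with ACAT2 (permutation p = 0.257, rho = 0.393, permutation p = 0.0318), -0.111 with ERG25 (permutation p = 0.501, rho = 0.207, permutation p = 0.245) and 0.257 with EBP (permutation p = 0.194, rho = 0.319, permutation p = 0.0934). Without it these were 0.626, 0.408 and 0.534. Over all arrays 7 of the 10 pairs had an adjusted permutation p under 0.05. On the 26 arrays without the 6 of low correlation, all 10 pairs did by Pearson's r, from 0.449 to 0.761, and 7 did by rho.

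The closeness of an array to the others moved with some of the clones within groups. Over all 32 arrays the correlation between the deviation of the clone and that of the array's median Spearman correlation was r = 0.866 for ERG25 (permutation p = 0.00019, rho = 0.62, permutation p = 0.00149), 0.657 for ACAT2 (permutation p = 0.00229, rho = 0.498, permutation p = 0.00836) and 0.468 for EBP (permutation p = 0.0117, rho = 0.372, permutation p = 0.0369). It was 0.213 for ERG28 (permutation p = 0.0359, rho = 0.247, permutation p = 0.145) and -0.39 for DHC24 (permutation p = 0.0903, rho = -0.111, permutation p = 0.493). Without membrane 59 it was r = 0.66 for ERG25 (permutation p = 0.00087, rho = 0.468, permutation p = 0.014) and 0.458 for ACAT2 (permutation p = 0.0223, rho = 0.311, permutation p = 0.12). For ERG28, EBP and DHC24 it was 0.197, 0.265 and 0.104, with permutation p from 0.187 to 0.566 and rho of 0.257, 0.277 and 0.0758 (permutation p from 0.179 to 0.689). On the 26 arrays it was 0.182 for ERG25 (permutation p = 0.42, rho = 0.184, permutation p = 0.385) and -0.072 for ACAT2 (permutation p = 0.877, rho = 0.00855, permutation p = 0.973). These 26 arrays were chosen by this same median correlation, which narrows its range. The lower r there thus cannot show whether the clones were free of it. On those 26 arrays the r of ACAT2 with ERG25 was 0.526 (permutation p = 0.00852, rho = 0.489, permutation p = 0.0181), against 0.601 over the 31.

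By group, the 10 pairs had r from 0.188 to 0.898 in L-LE, from 0.442 to 0.864 in L-HE and from 0.0272 to 0.982 in F-LE, all above 0. In the 7 F-HE livers without membrane 59, 4 of the 10 were above 0, and the range was -0.706 to 0.62. With membrane 59 as the eighth F-HE liver, 6 were above 0, 7 had an exact permutation p under 0.05 and the range was -0.956 to 0.883. ERG28 and DHC24 had r = 0.982 in F-LE (exact permutation p = 0.000174 over 8 livers, rho = 0.976, exact p = 0.000397) and -0.257 in F-HE (exact permutation p = 0.569 over 7 livers, rho = 0.0714, exact p = 0.906), or -0.717 with membrane 59 (exact permutation p = 0.049 over 8 livers, rho = -0.286, exact p = 0.501). The spread of ERG28 was narrower in those F-HE livers (SD 0.172) than in F-LE (0.333), and that of DHC24 was 0.246 against 0.474. Whether the correlation differed between groups was not tested. With the deviations of all 32 arrays taken from tank means in place of group means, at least 6 of the 10 pairs had a permutation p under 0.05 before adjustment.

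How particular the pairs were was seen by ranking all clones measured on each of the 31 arrays by their r with each cholesterol synthesis clone, as a description with no test. Of 7504 clones, ERG28 ranked first and ACAT2 second in likeness to DHC24, EBP ranked 13 and ERG25 105, and 0.346% of clones had an r above 0.5 with it. ERG28 ranked 2 in likeness to EBP. From ERG28 itself, EBP ranked 18 and DHC24 35, as 4.01% of clones exceeded an r of 0.5 there. In likeness to ACAT2, DHC24 ranked 12 and ERG25 26. ERG25 had the most clones above 0.5 (9.46%), and ACAT2 was its nearest clone of the 5, at rank 172. Membrane 59 moved these ranks widely. Over all 32 arrays and 7502 clones, the ranks in likeness to DHC24 were 10 for ERG28, 1919 for ACAT2, 1502 for EBP and 4912 for ERG25. ERG28 stayed at rank 2 in likeness to EBP, and from ERG28 the rank of EBP was 8 and that of DHC24 92. In likeness to ACAT2, ERG25 ranked 7 and DHC24 2804, and in likeness to ERG25, ACAT2 ranked 605. All clones shared the arrays and their scaling.

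**Figure D5:**
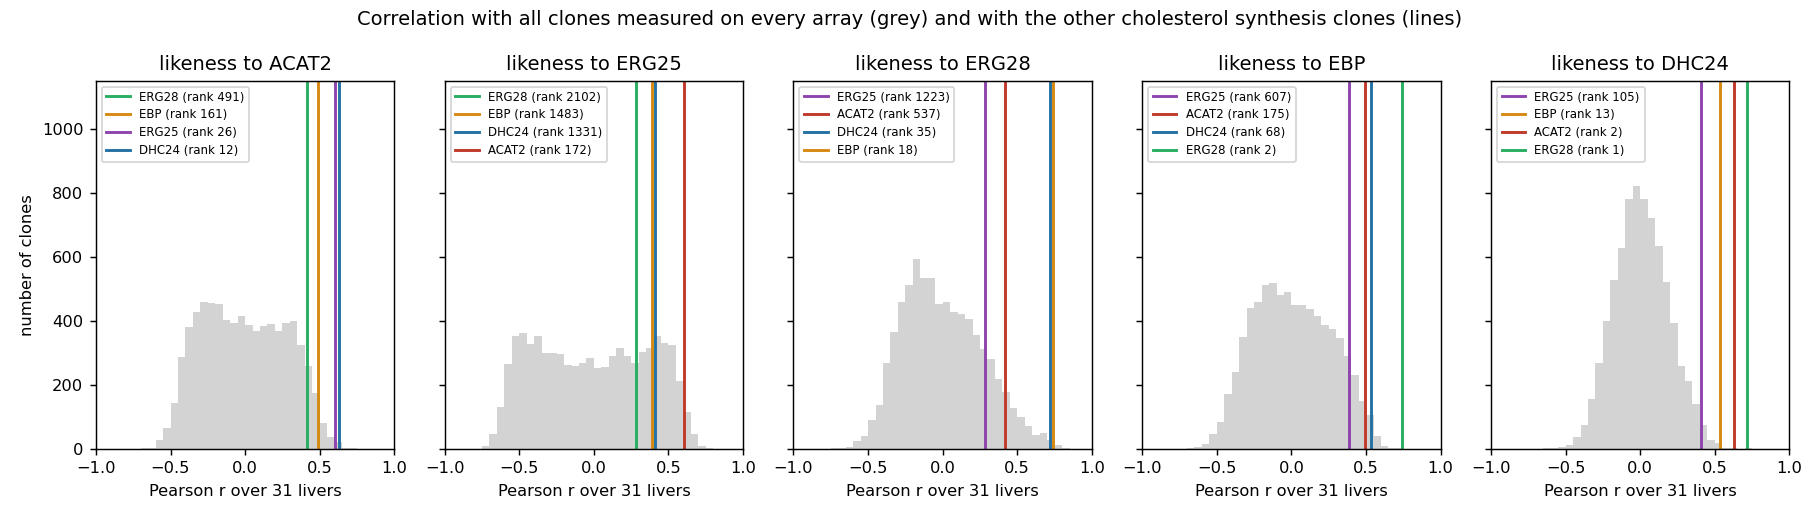
Number of clones (y axis) by Pearson r of their within-group deviations with each of the 5 clones over 31 livers (x axis), in grey, with the other cholesterol synthesis clones as coloured lines and their ranks among 7504 clones. For DHC24 the lines of ERG28 (0.716) and ACAT2 (0.626) are the right-most of all clones, whereas for ERG25 the lines lie within the broad upper part of the distribution.

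Among the 275 other clones that the study's lists name and that were measured on all 31 arrays, PKHA5, a pleckstrin homology domain protein, was nearest to ACAT2 (r = 0.744), followed by the phosphatidylinositol phosphate kinase PI52B (0.738) and the retinol dehydrogenase RDH12 (0.666). A clone matching ERMAP, an erythroid membrane protein, was nearest of all clones to ERG28 (0.847) and to EBP (0.744), and had r = 0.61 with DHC24. After ERMAP the nearest to ERG28 were the protease SPPL2A (listed as PSL2, r = 0.751) and heart-type fatty acid-binding protein (FABPH, r = 0.751). EBP was further followed by PKHA5 (0.619) and the spliceosome protein TXN4A (0.617). PKHA5 (0.623) and kinesin KIF2A (0.59) were the named clones nearest to DHC24 beside ERMAP. For ERG25 they were the respiratory chain subunit UCRQ (0.71), prolactin (PRL, 0.699) and the ribosomal protein RLA2 (0.682). With membrane 59 included, PKHA5 and PI52B remained the nearest to ACAT2 and ERMAP to ERG28 and EBP, whereas for ERG25 and DHC24 the 3 nearest named clones were all others. The names were read from the study's lists of differences on these arrays.

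Markers of other cells were read beside these values. The red cell marker band 3 (B3AT) lay between 1.54 and 3.23 on LE and between 2.58 and 3.59 on HE in the L line, and between 2.48 and 2.96 on LE and 2.12 and 3.35 on HE in the F line without membrane 59. Its diet difference was 0.35 (limma adjusted p = 1), or 0.47 for B3AT without membrane 59 (limma adjusted p = 0.382), opposite in sign to that of the 5 clones. Of the 2 muscle clones, parvalbumin (PRVA) fell by 0.53 on HE (limma adjusted p = 0.0709), in the direction of the 5 clones, and by 0.54 without membrane 59 (limma adjusted p = 0.0301). TITIN had a difference of -0.31 (limma adjusted p = 1), which turned to 0.06 without membrane 59 (limma adjusted p = 0.943). The mean of the muscle clones spanned 3.84 to 4.39 on LE and 3.62 to 4.21 on HE in the L line. In the F line it spanned 3.02 to 4.28 on LE and, without membrane 59, 3.49 to 4.02 on HE. All 3 markers had values on all 32 arrays. Their part in the results was not tested. In whole liver, fewer cells of a type and less RNA per cell cannot be told apart.

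Of 4 other named clones for proteins related to sterols or acetyl-CoA, 1 was called by limma over both lines, beside 0.232% of all clones called lower on HE. The names of these 4 were also read from the study's lists of calls on these same arrays. Their count and ranks are therefore no separate evidence. EBPL, a relative of EBP without known isomerase activity, ran from 0.35 through 0.72 to 1.07 in L-LE, from -0.15 through 0.41 to 0.65 in L-HE and from 0.25 through 0.98 to 1.36 in F-LE. In F-HE it ran from -0.83, on membrane 59, through 0.02 to 0.42. The F groups overlapped only slightly and the L groups widely. EBPL fell by 0.62 on HE (standard error 0.123, adjusted p = 0.0282) and by 0.56 without membrane 59 (adjusted p = 0.0129), and in F its difference of -0.88 had the lowest p of all 7763 clones (limma adjusted p = 0.125). Without membrane 59 that difference was -0.76 and was no longer called (limma adjusted p = 0.18). Whether the EBP and EBPL spots share signal was not tested. The cholesteryl ester transfer protein CETP, the sterol carrier NLTP and the acetyl-CoA synthetase ACS2L had diet differences of -0.15, 0.00 and -0.18 (limma adjusted p = 1 for each). Without membrane 59 these were -0.21, -0.15 and -0.25 (limma adjusted p from 0.651 to 0.773).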

How the data were processed

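Radioactively labelled cDNA of each liver was hybridized to 1 nylon array, and the authors excluded spots with a low oligonucleotide signal, corrected each signal for the DNA in the spot, scaled each array to its median and log-transformed the result. The deposited values are on the log10 scale and were converted to log2. The table holds 9216 spots, control spots were left out of the tests, and 41354 cells written as a bare 0 were treated as missing.

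limma 3.58.1 in R 4.3.3 was fitted with 1 mean per group to all 7763 clones with at least 5 values per group, and clones with a Benjamini-Hochberg adjusted p below 0.15, the false discovery rate of the study's methods, were called. Group pairs, tank means and correlations were tested by two-sided permutation in Python 3.11.15 (numpy 2.4.6), exactly where groups were compared and with 100000 shuffles within groups for pooled correlations. The limma fit of diet, line and interaction over all arrays was tested on simulated data. The number of arrays limits the precision. All 8 livers per group were used, since the sources do not say which of them the study tested. The clones, lists and alternatives were chosen with earlier results of these data known. Clones named are the 5 and, from the study's lists, other clones related to sterols or acetyl-CoA and marker clones. For each of the 5, the 3 named clones of highest r are also given. Alternatives were arrays or tanks left out, other thresholds, two-way ANOVA, normalizations, filters, moderation, tank as a block or as a mean, array weights, a membrane covariate and fits of 1 line. SAM, which the study also used, was not run.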

Additional observations from a re-analysis of the deposited data

Results flagged for a closer look

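Of the 20 sets of 8 livers (5 clones in 4 groups), 3 had 1 liver far from the rest of its group, with a gap to its nearest neighbour of over 0.526 of the whole range. Chance flags about 1 in 20 groups. ERG25 in F-HE had its lowest value, 0.54, on membrane 59, with the next liver at 2.84, and DHC24 in F-HE had its highest value, -0.18, on the same membrane, with the next at -1.30. ERG28 in L-LE had its lowest value, -1.35, on membrane 56, with the next at -0.08 and a gap of 0.527 of the range, just above the limit.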

How the results depend on the processing

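The diet differences of the 5 clones stayed below 0 under every alternative run, whereas the calls moved. Quantile normalization added EBP (-0.57). Array weights gave 5 called clones, with ERG25 at -0.43, EBP at -0.48 and DHC24 at -0.97. Leaving out the 6 low-correlation arrays, chosen after seeing the data, also gave 5, with ERG25 at -0.46, EBP at -0.51 and DHC24 at -1.02. ANOVA gave 4, with EBP at -0.49 and DHC24 at -0.76. With 1 mean per tank limma called 0, with ACAT2 at -0.98 and ERG28 at -0.78. With the tank number as a replicate block, DHC24 (-0.78, limma adjusted p = 0.138) joined ACAT2 and ERG28, and no other call over both lines changed. Tank numbers are not known to pair tanks across groups. For quantile normalization, tank means and the replicate block the share of all clones called is not given here. These counts therefore have no baseline.

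With 1 array left out, 2 to 3 clones were called, since DHC24 passed without membrane 59, 56, 45, 33, 17 or 72. Of all clones, 39 of 7759 were called lower without membrane 59, and 17 to 20 without membrane 56, 45, 33 or 17. With 1 tank left out the count was 1 to 3, as ERG28 was lost without F-HE tank 1 (limma adjusted p = 0.164) and ACAT2 without F-LE tank 3 (0.18), L-HE tank 2 (0.175) or L-LE tank 3 (0.176). The differences over these fits ran from -1.06 to -0.82 for ACAT2, from -0.95 to -0.74 for ERG28 and from -0.86 to -0.65 for DHC24. The share of all clones called without membrane 72 or with 1 tank left out is not given here. Those counts therefore have no baseline. The tank test counted 3 to 5 clones, and 6 to 9 pairs correlated. The pair ERG25 and DHC24 ran from -0.16 to 0.41 and was 0.449 without the low-correlation arrays.

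In the F line the count of 2 became 0 to 2 with 1 array or tank left out, and it fell without membrane 67, 65, 61, 59, 54, 53, 40, 39, 28, 24, 18, 17, 13, 12, 11, 8 or 5. It was 1 after quantile normalization or in a fit of the F line alone, 0 after re-centring, with 1 mean per tank or at an adjusted p under 0.05, and 5 with array weights, where 1.28% of all clones were called lower. Without membrane 67, 65, 61, 59, 54, 53, 40, 24, 18, 17, 11 or 8, 0 of all clones tested were called in F. For tanks left out, quantile normalization, re-centring and tank means the share is not given here. In the L line 1 clone, ERG28, was called without the low-correlation arrays, beside 0.169% of all clones.

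Small uncalled line differences turned sign. That of ACAT2 was 0.033 with 1 mean per tank, 0.0014 with the replicate block, 0.087 with array weights and 0.12 without the low-correlation arrays, where ERG25 had 0.043 and ERG28 -0.027. With an array or tank left out ACAT2 ran from -0.14 to 0.10, ERG25 from -0.26 to 0.028, the positive end of both being the value without membrane 59, and ERG28 from -0.0073 to 0.21. On LE, DHC24 was 0.012 after quantile normalization and 0.014 with 1 mean per tank, and with arrays or tanks left out it ran from -0.16 to 0.10 and EBP from -0.19 to 0.11. On HE, ACAT2 was 0.0038 without the low-correlation arrays. The causes were not tested.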
